A study of Mus musculus with 5 samples.

Results

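The 9 genes described here encode parts of the machinery by which cells sense double-stranded RNA and answer type I interferon: the cytosolic RNA sensors Ddx58 (RIG-I), Ifih1 (MDA5), Dhx58 (LGP2) and Eif2ak2 (PKR), the mitochondrial adaptor Mavs, the receptor subunits Ifnar1 and Ifnar2, and the transcription factors Stat2 and Irf7. They were chosen by symbol for this function, with earlier results of these data known. All 9 were among the 11352 genes of the deposited mouse table. RNA had been sequenced from haematopoietic stem and progenitor cells (HSPCs), sorted as negative for lineage markers and CD135 and positive for KIT and SCA1. The Cux1-low group held 2 libraries from mice with knockdown of Cux1, which encodes a homeodomain transcription factor. The Cux1-low;NrasG12D group, called NrasG12D from here on, held 3 libraries from mice that carried the same knockdown and NrasG12D, a constitutively active RAS mutant. Mice of both groups had received doxycycline and pI:C over 4 weeks, and pI:C is an artificial double-stranded RNA bound by these sensors. The labels give no strain, age, promoter, Cre line or interval between the last pI:C dose and the sort, nor whether libraries came from separate animals. The p-values therefore measure only the spread between these samples, which may be technical. Untreated mice, mice with normal Cux1 and mice with NrasG12D alone were not analysed here, so the values below compare 2 pI:C-treated groups and do not show a response to pI:C.

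RIG-I and MDA5 are RNA helicases that recognise different features of double-stranded RNA and pass the signal through their CARD domains to MAVS on the mitochondrial outer membrane. LGP2 is a relative that lacks CARD domains and modulates both. MAVS recruits kinases that activate IRF3 and IRF7, the factors that switch on the interferon genes. Secreted type I interferon binds IFNAR1 and IFNAR2, whose kinases JAK1 and TYK2 activate STAT2. It joins IRF9 in the complex ISGF3, which binds a DNA element called ISRE in the promoters of interferon-stimulated genes, among them the genes of the sensors and Irf7. PKR is a kinase that, once bound to double-stranded RNA, phosphorylates the initiation factor eIF2 and lowers translation. In haematopoietic stem cells, interferon is known to drive dormant cells into cycle, and pI:C is a usual way to provoke this.

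ISRE elements are the DNA sites that ISGF3 binds, and matches to their letters near the members' start sites are shown first. RefSeq promoter windows of the GRCm38.p6 build, 250 bases before to 50 bases after each start, were found for 8 of the 9 members, and Dhx58 was not matched. The letters GAAANNGAAA were searched on both strands. A match was found in 4 of these 8 windows, against 3.44% of 32851 windows of all genes. Each is printed 5′ to 3′ on the gene's strand with up to 10 flanking bases and the match in capitals.
Ddx58: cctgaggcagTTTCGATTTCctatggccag
Ifih1: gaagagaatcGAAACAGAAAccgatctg
Eif2ak2: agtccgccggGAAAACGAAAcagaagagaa
Stat2: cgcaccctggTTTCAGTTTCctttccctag
The Ddx58 stretch lies at chr4:40239804-40239833 (minus strand), with its match starting at base 3 of the transcript. The Ifih1 stretch lies at chr2:62646206-62646233 (minus strand) and the Eif2ak2 stretch at chr17:78882535-78882564 (minus strand), and their matches start at transcript bases 33 and 19. The Stat2 stretch lies at chr10:128270266-128270295 (plus strand), and its match starts 222 bases before the start. Irf7, Mavs, Ifnar1 and Ifnar2 held no match to these letters in this window. Both receptor genes held the letters TTCNNNGAA of the GAS element, a palindrome that STAT dimers bind, as did Eif2ak2. GAS letters occurred in 3 of the 8 windows, against 8.30% of all windows, and ISRE letters and GAS letters did not overlap in them.
Ifnar1: ggcgggggcgTTCACGGAAggggcggggc
Ifnar2: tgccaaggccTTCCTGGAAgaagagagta
The Ifnar1 stretch lies at chr16:91485200-91485228 and the Ifnar2 stretch at chr16:91372559-91372587, both on the plus strand, with matches starting 5 and 214 bases before the start. These are letter matches, and no binding was measured.

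Depth was similar across libraries. Every value below 50 was a whole multiple, within 0.001 of a step, of 1 step per library, which, taking a step as 1 read, puts 16489711 to 20262498 reads on the listed genes. On that reading the members held between 314 reads (Irf7 in NrasG12D library 3) and 3436 reads (Ifnar2 in Cux1-low library 1), so counting error alone (1 SD) was at most 5.64% of a value. NrasG12D library 3 stood apart from the other two NrasG12D libraries. On the first principal component, which held 75.0% of the variance, it lay at -3.94, between the Cux1-low libraries (-30.9 and -28.2) and NrasG12D libraries 1 and 2 (27.2 and 35.7). Kit, encoding a receptor of the sort gate, was present in every library, at 1359 and 1373 normalized CPM in Cux1-low and 477, 569 and 816 in NrasG12D. Ly6a, which encodes SCA1, was at 44.7 and 48.7 against 24.2, 14.2 and 37.7. Transcripts of Flt3, which encodes the CD135 selected against, were also present (326 and 388 against 196, 165 and 230). Of 5 measured genes listed for CD135 and lineage markers, 3 were lower in every NrasG12D library than in either Cux1-low library. The other 2 were higher in every NrasG12D library (highest log2 fold change 2.92). Of all 11352 genes, 3063 were lower in this way and 3013 higher, so such separation was common.

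Across the 9 genes, RNA of the 3 helicase sensors, of Ifnar1 and of both transcription factors was lower in every NrasG12D library than in either Cux1-low library, while Mavs, Eif2ak2 and Ifnar2 overlapped between the groups. Ddx58 differed most (2.25-fold between group means), followed by Dhx58 (1.70-fold) and Ifnar1 (1.39-fold). In the limma fit over all 11352 genes, 0 of the 9 passed an adjusted p of 0.05, where 1.13% of all genes passed. At an unadjusted p under 0.05, 6 of 9 passed, all lower in NrasG12D, where 16.5% of all genes did so in that direction. By the authors' deposited values 3 of 9 had an adjusted p under 0.05, namely Ddx58, Dhx58 and Ifnar1, all lower, against 9.14% of all genes. Groups that did not overlap, with NrasG12D lower, were seen for 6 of 9 members and for 27.0% of all genes. A negative log2 fold change was found for 8 of 9 members and 50.3% of all genes. The members' median log2 fold change was -0.40, beside -0.0030 over all genes. Without NrasG12D library 3, limma called the same 3 genes as the authors' values (Ddx58, Dhx58 and Ifnar1), where 19.4% of all genes were called lower, and leaving out any other library gave 0 members called. Samples are bulk sorts, so fewer cells that express a gene and less RNA per cell cannot be told apart.

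**Figure D1:**
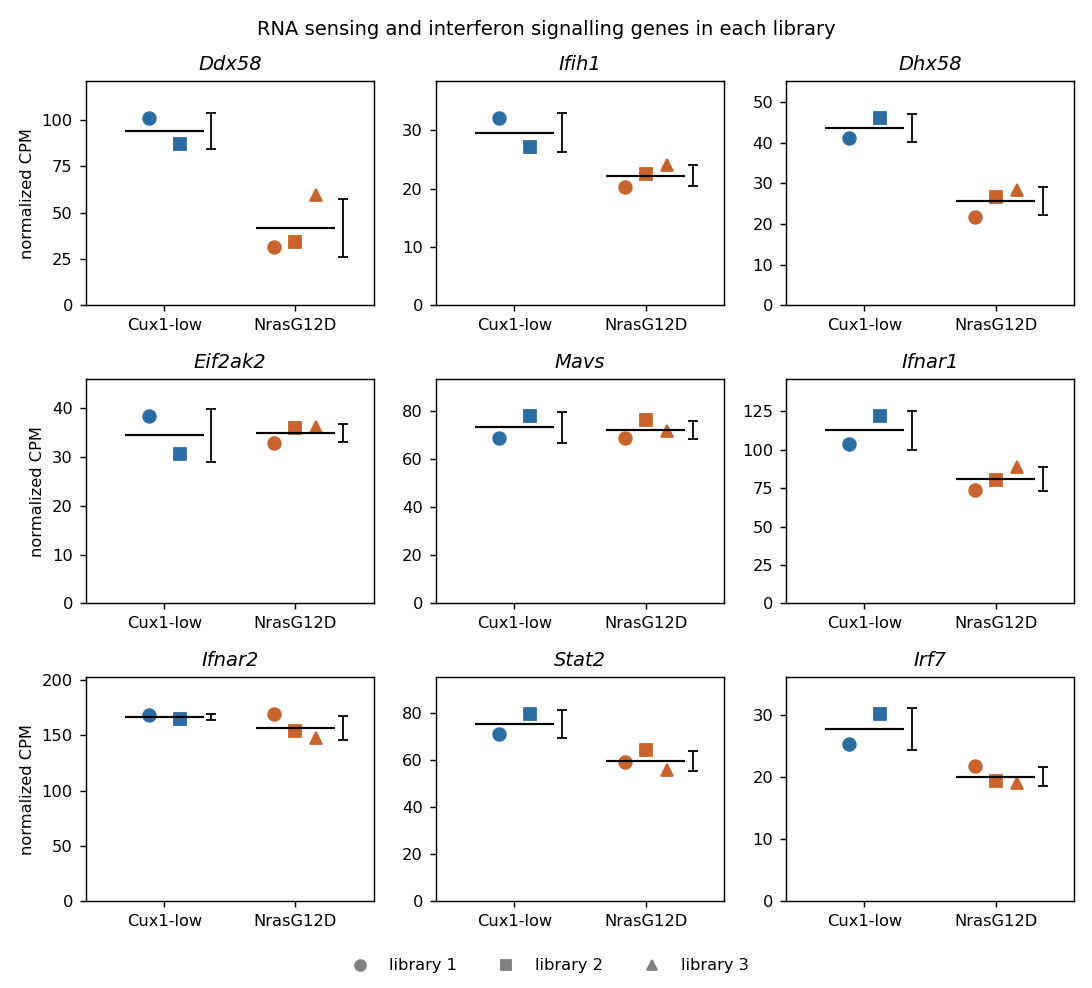
Normalized CPM (vertical axis, from 0) of the 9 genes in each of the 2 Cux1-low (blue) and 3 NrasG12D (orange) libraries; marker shape gives the library number, horizontal lines are group means and bars at the side are 1 SD. Every NrasG12D point lies below both Cux1-low points for Ddx58, Ifih1, Dhx58, Ifnar1, Stat2 and Irf7, and the groups overlap for Eif2ak2, Mavs and Ifnar2.

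Ddx58 (ENSMUSG00000040296.15, chromosome 4, 40203773 to 40239828, minus strand) encodes RIG-I, which recognises short double-stranded RNA with a 5′ triphosphate end. Its values were 101 and 87.0 normalized CPM for Cux1-low, against 31.7, 34.0 and 59.5 for NrasG12D. NrasG12D libraries 1 and 2 were close to each other, and library 3 lay between them and the Cux1-low libraries, without overlap. Its log2 fold change came to -1.20 (SE 0.27, 95% interval -1.83 to -0.57, limma adjusted p = 0.0680). Without NrasG12D library 3 it was -1.48 (SE 0.12, limma adjusted p = 0.00114), and across all alternative settings its adjusted p lay between 2.41e-07 and 0.400 (limma). The authors' deposited table gives -1.17 (adjusted p = 0.00162).

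Dhx58 (ENSMUSG00000017830.15, chromosome 11, 100694884 to 100704271, minus strand) encodes LGP2, the helicase without CARD domains. It measured 41.1 and 45.9 normalized CPM in Cux1-low, against 21.7, 26.6 and 28.4 in NrasG12D. All 3 NrasG12D libraries were low, library 3 included. This gave a log2 fold change of -0.75 (SE 0.16, 95% interval -1.13 to -0.37, limma adjusted p = 0.0630), and -0.83 (limma adjusted p = 0.00794) without NrasG12D library 3, in a range of 0.000941 to 0.400 over the alternatives. The authors' deposited table gives -0.77 (adjusted p = 0.00310). Of its annotated exon bases, 4.31% overlap the antisense gene Dhx58os, whose reads cannot be told apart without strand.

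Ifih1 (ENSMUSG00000026896.14, chromosome 2, 62595798 to 62646255, minus strand) encodes MDA5, the sensor of long double-stranded RNA and of pI:C. Its values were 32.0 and 27.2 normalized CPM in Cux1-low and 20.3, 22.4 and 24.0 in NrasG12D. All 3 NrasG12D libraries lay below both Cux1-low libraries, whose SD was 3.40, against 1.85 within NrasG12D. On the log2 scale the difference was -0.40 (SE 0.15, 95% interval -0.76 to -0.03, limma adjusted p = 0.139), and it passed neither in the authors' deposited table (adjusted p = 0.144) nor without NrasG12D library 3 (limma adjusted p = 0.0536, in a range of 0.0536 to 0.558).

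Of the 3 helicase genes, Ddx58 did not keep a constant ratio to Ifih1. Within a library, Ddx58 was 3.15 and 3.20 times the Ifih1 value in the Cux1-low libraries and 1.56, 1.52 and 2.48 times in the NrasG12D libraries, in normalized CPM not corrected for length. For Dhx58 over Ifih1 the ratios were 1.28 and 1.69 against 1.07, 1.19 and 1.18. Here the gap from 1.28 to 1.19 was smaller than the spread between the 2 Cux1-low libraries. Both ratios were lower in every NrasG12D library, and these ratios were chosen after the values were seen and were not tested.

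Eif2ak2 (ENSMUSG00000024079.4, chromosome 17, 78852564 to 78882573, minus strand), the PKR gene, measured 38.2 and 30.5 normalized CPM in Cux1-low, against 32.8, 35.9 and 36.1 in NrasG12D. All 3 NrasG12D libraries lay between the 2 Cux1-low libraries. With a log2 fold change of 0.03 (SE 0.15, 95% interval -0.32 to 0.38, limma adjusted p = 0.898) no direction could be read, and the sign turned when columns were rescaled to a common sum. It shares ISRE letters near its start with Ddx58 and Ifih1, as printed above, and 4.32% of its exon bases overlap 2 genes on the other strand.

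Mavs (ENSMUSG00000037523.13, chromosome 2, 131234063 to 131248025, plus strand) encodes the adaptor on which RIG-I and MDA5 signalling converges. It measured 68.9 and 77.9 normalized CPM in Cux1-low, against 68.9, 76.2 and 71.8 in NrasG12D. The ranges coincided almost fully, and the log2 fold change was -0.02 (SE 0.12, 95% interval -0.29 to 0.25, limma adjusted p = 0.919).

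The receptor genes lie on the same strand of chromosome 16, 79649 bases apart. Ifnar1 (ENSMUSG00000022967.13, 91485238 to 91507441) encodes the subunit that binds TYK2. It measured 104 and 122 normalized CPM in Cux1-low, against 73.8, 80.2 and 88.9 in NrasG12D, where every library was lower. The log2 fold change was -0.47 (SE 0.13, 95% interval -0.78 to -0.16, limma adjusted p = 0.0838), and -0.54 (limma adjusted p = 0.0144) without NrasG12D library 3, in a range of 0.00583 to 0.400. In the authors' deposited table it is -0.48 (adjusted p = 0.0253).

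Ifnar2 (ENSMUSG00000022971.18, 91372783 to 91405589) encodes the subunit that binds interferon with high affinity and carries JAK1. It measured 168 and 165 normalized CPM in Cux1-low, against 169, 154 and 148 in NrasG12D. NrasG12D library 1 was the highest of all 5, so the groups overlapped, and the log2 fold change was -0.09 (SE 0.10, 95% interval -0.34 to 0.16, limma adjusted p = 0.571). Its exons overlap those of the gene model Gm21970 on the same strand over 9.46% of their bases. Ifnar1 was 0.615 and 0.738 times the Ifnar2 value in Cux1-low libraries and 0.436, 0.522 and 0.602 times in NrasG12D libraries, a ratio chosen after the values were seen and not tested.

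Stat2 (ENSMUSG00000040033.16, chromosome 10, 128270559 to 128292849, plus strand) encodes the STAT that is particular to type I and type III interferon signalling. Its values were 71.1 and 79.3 normalized CPM in Cux1-low and 59.3, 64.1 and 55.5 in NrasG12D. Here library 3 was the lowest of the NrasG12D libraries, not the one nearest to Cux1-low. Stat2 had a log2 fold change of -0.33 (SE 0.12, 95% interval -0.62 to -0.04, limma adjusted p = 0.126).

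Irf7 (ENSMUSG00000025498.15, chromosome 7, 141262706 to 141266481, minus strand) encodes the interferon-inducible factor that amplifies interferon gene transcription. It measured 25.3 and 30.0 normalized CPM in Cux1-low, against 21.8, 19.3 and 19.1 in NrasG12D, again with library 3 lowest. Irf7 had a log2 fold change of -0.44 (SE 0.15, 95% interval -0.81 to -0.08, limma adjusted p = 0.117). Neither Stat2 nor Irf7 passed in the authors' deposited table (adjusted p = 0.117 and 0.105). Over the 5 libraries Stat2 was also the member whose centred log2 profile lay nearest to that of Irf7 (root mean square difference 0.11). Among all other genes the 3 nearest to Irf7 were Atraid, Xkr5 and Chpf2 (0.032, 0.034 and 0.051), a description of 5 shared libraries.

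**Figure D2:**
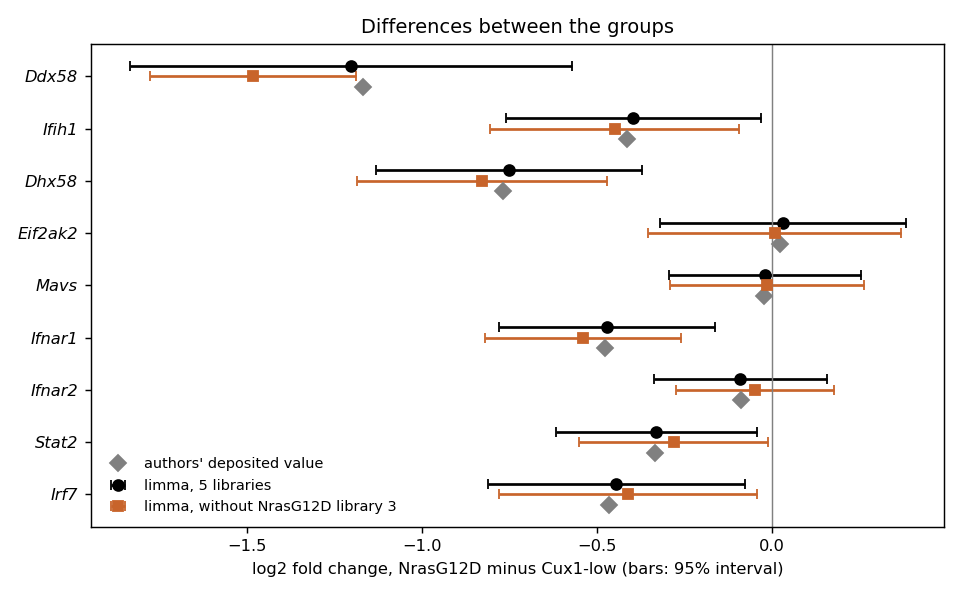
Log2 fold change of each gene (horizontal axis, NrasG12D minus Cux1-low) from limma on 5 libraries (black circles), from limma without NrasG12D library 3 (orange squares), both with 95% intervals not corrected for multiple genes, and from the authors' deposited table (grey diamonds, no interval). Ddx58 lies furthest from 0 at -1.20, and the intervals of Eif2ak2, Mavs and Ifnar2 cross 0.

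Levels can be set side by side between genes only per length. Per kilobase of annotated exon, Ifnar2 was highest at a mean of 50.1 normalized CPM per kb in Cux1-low, followed by Mavs at 21.9 and Ifnar1 at 19.0. Mavs and Ifnar1 were separated by little, with Cux1-low libraries at 20.6 and 23.3 against 17.4 and 20.5. Ddx58, Dhx58 and Stat2 came next at 13.3, 13.3 and 12.7, and their libraries overlapped. Irf7 (7.33) and Eif2ak2 (6.72) overlapped as well, and Ifih1 was lowest at 3.63. In NrasG12D the order from the top was Ifnar2 (47.1), Mavs (21.6), Ifnar1 (13.6), Stat2 (10.1), Dhx58 (7.81), Eif2ak2 (6.83), Ddx58 (5.92), Irf7 (5.31) and Ifih1 (2.72). The Ddx58 libraries there (4.50, 4.82 and 8.45 per kb) spanned those of Eif2ak2 and Irf7, so these neighbours were not separated, and Dhx58 overlapped Eif2ak2. Annotated exons include those of rare transcripts, so per-length levels are approximate.

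**Figure D3:**
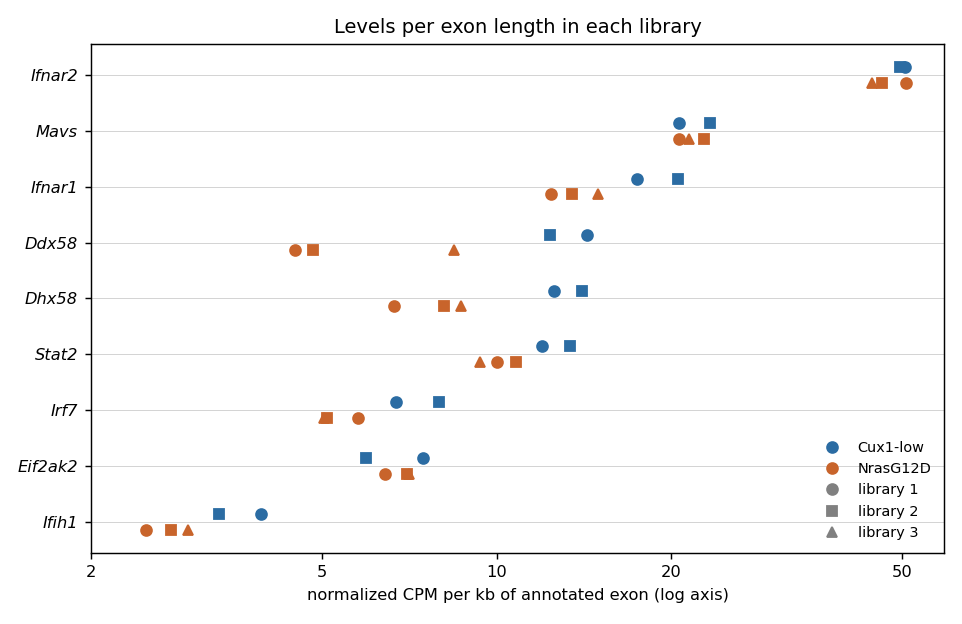
Normalized CPM per kilobase of annotated exon (horizontal log axis) for each gene in each library, sorted by the Cux1-low mean; blue is Cux1-low, orange is NrasG12D and marker shape gives the library number. Ifnar2 is highest in all 5 libraries and Ifih1 lowest, and Ddx58 sits near Dhx58 and Stat2 in Cux1-low.

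The other genes of the pathway were read from 9 lists, with the members left out. Of 146 measured genes, 4 fell in NrasG12D over all genes tested (limma adjusted p under 0.05) and 0 rose, and Oasl2, Nlrc5 and Trim21 were among those that fell. Over all genes 0.872% were called lower. At an unadjusted p under 0.05, 55 of the 146 were lower and 12 higher, where 16.5% and 14.8% of all genes were, and their median log2 fold change was -0.22. Leaving out either Cux1-low library, or NrasG12D library 1, left 0 of these limma calls or any other among the 146, and leaving out NrasG12D library 2 gave 1, lower in NrasG12D. Without NrasG12D library 3, 58 fell and 16 rose, where 19.4% and 18.0% of all genes did. By the authors' deposited adjusted p-values 37 were lower and 6 higher, against 9.14% and 6.97% of all genes.

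Receptors, JAKs, STATs and IRF9 had 13 measured genes, of which 11 were negative, with a median of -0.33. Irf9, the DNA-binding part of ISGF3 and a partner of Stat2, measured 111 and 114 normalized CPM in Cux1-low, against 80.5, 76.6 and 77.0 in NrasG12D. All 3 NrasG12D libraries were close to one another, library 3 included, and below both Cux1-low libraries (1.44-fold lower in the mean, log2 fold change -0.52, SE 0.10, limma adjusted p = 0.0567). Stat2 and Irf9 were thus both lower in every NrasG12D library, and neither passed the test.

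Of 26 other sensors and editors of double-stranded RNA, Oasl2 fell and 25 did not pass (15 negative, median -0.14). Oasl2, of the oligoadenylate synthetase family, was at 28.1 and 26.1 against 7.44, 7.53 and 10.3 (3.22-fold lower, limma adjusted p = 0.0327). Ddx60, a helicase linked to RIG-I signalling, was at 25.1 and 18.8 against 6.56, 7.76 and 10.6 (log2 fold change -1.31, limma adjusted p = 0.0529). Both are themselves inducible by interferon.

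Genes that carry the signal from MAVS to the IRFs gave 0 calls among 22 (13 negative, median -0.10). At an unadjusted limma p under 0.05, 6 were lower and 3 higher, where 16.5% and 14.8% of all genes were. The kinase gene Ikbke was at 46.2 and 54.3 normalized CPM against 26.7, 24.3 and 29.9 (limma adjusted p = 0.0508), and the adaptor gene Tbkbp1 at 13.8 and 12.9 against 6.41, 4.05 and 7.66 (limma adjusted p = 0.0757). Of 17 genes listed as restraining RNA sensing, 1 fell. This was Nlrc5, at 113 and 106 against 44.6, 48.2 and 58.9 (log2 fold change -1.11, SE 0.15, limma adjusted p = 0.0355), which encodes an NLR protein also known as a transactivator of MHC class I genes. The ubiquitin ligase gene Smurf1 was at 34.0 and 35.6 against 15.3, 13.6 and 25.9 (limma adjusted p = 0.0862). In this list 11 of 17 were negative, with a median of -0.19.

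The list around PKR and the integrated stress response leaned the other way, with 10 of 14 positive and a median of 0.25. None of the 14 passed. At an unadjusted limma p under 0.05, 5 were higher and 2 lower, where 14.8% and 16.5% of all genes were. Atf4, the transcription factor translated when eIF2 is phosphorylated, was at 188 and 183 normalized CPM against 253, 236 and 247 (log2 fold change 0.40, limma adjusted p = 0.0726). Trib3, a target of ATF4, had the opposite sign, at 9.71 and 9.96 against 2.97, 2.68 and 4.37 (log2 fold change -1.34, limma adjusted p = 0.0508). Higher Atf4 RNA and lower Trib3 RNA were each seen in all 3 NrasG12D libraries.

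Brakes on receptor signalling gave 0 calls among 15 (11 negative, median -0.23). At an unadjusted limma p under 0.05, 5 were lower and 1 higher, where 16.5% and 14.8% of all genes were. Cish and Socs2, which encode SOCS proteins induced by STAT5, had the smallest p, at 32.3 and 23.4 against 7.74, 8.62 and 12.6 normalized CPM for Cish and 7.16 and 4.67 against 1.33, 1.65 and 2.13 for Socs2 (limma adjusted p = 0.0508 and 0.0581). Of 7 other interferon regulatory factors 0 passed. At an unadjusted limma p under 0.05, 4 were lower and 0 higher, beside the same 16.5% and 14.8% of all genes. Irf1 was at 209 and 205 against 118, 93.4 and 134 (limma adjusted p = 0.0533).

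Interferon-stimulated genes had the lowest median of the lists, -0.70 over 32 measured genes, of which 28 were negative. Trim21, an antibody receptor and ubiquitin ligase, fell from 62.8 and 65.1 to 37.4, 35.6 and 32.6 normalized CPM (limma adjusted p = 0.0430), and 31 did not pass. Tap1, the peptide transporter, was at 488 and 454 against 309, 258 and 305 (limma adjusted p = 0.0508). At an unadjusted limma p under 0.05, 20 of the 32 were lower and 0 higher, where 16.5% and 14.8% of all genes were. Without NrasG12D library 3 limma called 19 lower and 1 higher, where 19.4% and 18.0% of all genes were called. RefSeq windows with ISRE letters were found for 8 of the 27 of these genes that matched, against 1079 of 27025 genes in all. The calls of Oasl2, Nlrc5 and Trim21 were lost without any 1 of the Cux1-low libraries or NrasG12D libraries 1 and 2 (limma adjusted p between 0.0604 and 0.365). Of the 9 interferon ligand genes listed, 0 were among the 11352 measured genes.

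**Figure D4:**
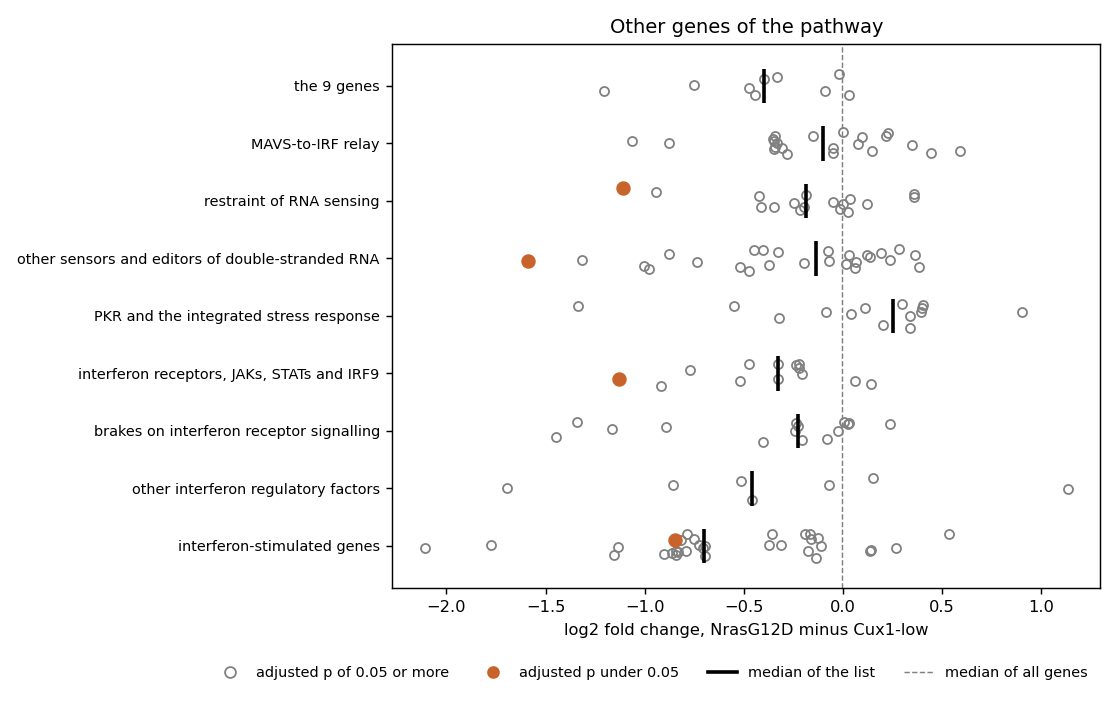
Log2 fold change (horizontal axis, NrasG12D minus Cux1-low) of every measured gene in the 9 genes and in each pathway list (rows); filled orange points passed an adjusted p of 0.05, open points did not, black bars are list medians and the dashed line is the median of all genes. The 4 filled points, among them Oasl2, Nlrc5 and Trim21, all lie below 0, and the interferon-stimulated genes have the lowest median.

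Markers of cell types moved between the same libraries. The summed level of 9 measured stem cell genes of 10 was 1313 and 1359 normalized CPM in Cux1-low and 408, 356 and 801 in NrasG12D, with library 3 between the groups as for Ddx58. The 9 measured erythroid genes of 11 summed to 4772 and 5223 against 8216, 11445 and 5848, and 7 measured B cell genes of 10 to 56.0 and 74.5 against 231, 463 and 58.0. Plasmacytoid dendritic cells are known for high Irf7. Their 6 measured markers of 11 summed to 316 and 286 against 268, 248 and 265, and the defining marker Siglech was not among the measured genes. Conventional dendritic cell markers (5 measured of 9) summed to 808 and 543 against 357, 252 and 236. Most of this sum came from H2-Aa, H2-Ab1 and Cd74, genes of MHC class II presentation (log2 fold change -1.69, -1.16 and -1.54). The other 2 markers had a positive log2 fold change (highest 0.74), so the list did not move as a whole. Monocyte and macrophage markers (7 of 14) summed to 469 and 535 against 684, 531 and 453. T and NK cell markers (4 of 9) summed to 258 and 286 against 325, 214 and 353, granulocyte markers (4 of 10) to 7416 and 10486 against 19305, 12850 and 8053, and megakaryocyte markers (7 of 7) to 836 and 810 against 557, 478 and 844. The part of these cell types in the values of the 9 genes was not tested.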

How the data were processed

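Polyadenylated RNA had been sequenced from 2 Cux1-low and 3 NrasG12D libraries. TopHat, HTSeq and edgeR are listed per the submitters' processing notes, with neither version nor role, as are the builds mm10 (mouse) and hg19. The deposited signal values are headed CPM per the file headers, but columns sum to 971746 to 1026780, so they are scaled read counts called normalized CPM here. Log2 fold changes, mean log2 levels, likelihood ratio scores, p-values and adjusted p-values of the authors' own comparison are in the same deposited table. Whether counting used strand was not given in the sources. Every listed gene had a value above 1 in at least 3 libraries. Read numbers inferred from the step between values served only to estimate depth and counting error, and no count model was run.

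The comparison used limma 3.58.1 in R 4.3.3 with a trended variance on log2(normalized CPM + 1), two-sided, with Benjamini-Hochberg adjustment over 11352 genes. Genes under 1 in all but at most 1 library would have been dropped, and 0 were. Fold changes on this scale understate the change of low genes. The fit was run on simulated data with the same spread setting for every gene and library. No simulated library was set apart as NrasG12D library 3 was, so that case was not covered. Members and lists were chosen with earlier results of these data known. From each list the text names genes with an adjusted p under 0.05 (at most 4), or the 2 of smallest p if fewer passed. Some genes that this rule selects are not reported here. The genes nearest to Irf7 had to have a descriptive symbol and a mean log2 level of 3 or more. Kit, Ly6a, Flt3 and the genes in the closing section were chosen after their values were seen. Alternatives covered the pseudocount, low-value filter, scaling, robust variance, replicate block and each library left out. Coordinates and exon lengths come from GENCODE M21 (mm10). Figures used Python 3.11.15 and matplotlib 3.10.9.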

Additional observations from a re-analysis of the deposited data

How the results depend on the processing

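The count of 0 called members held with pseudocounts of 0.5 and 0.1, without a filter, with a mean of at least 5, with both rescalings and with robust variance. With the replicate block 3 members were called, all lower in NrasG12D, where 2271 of all 11352 genes were called lower. Leaving out 1 NrasG12D library gave 0 to 3. Pathway genes called, 4 as reported, numbered 14 with columns rescaled to a common sum, 9 with median-of-ratios scaling, 70 with the block, and 0 to 74 with 1 library left out. All genes called, 128 as reported, numbered 213 with columns rescaled to a common sum, 4163 with the block, and 3 to 4243 with 1 library left out, the highest without NrasG12D library 3. Titles share replicate numbers 1 and 2, but the labels state no pairing, so the numbers were not taken as pairs. Deviations from the group means correlated at -0.22 and -0.0014 between same-numbered libraries. The deviations of the 2 Cux1-low libraries mirror each other, and NrasG12D libraries 1 and 2 both deviate away from library 3. These correlations therefore cannot exclude pairing. In the block fit library 3 has no partner and drops out of the group difference. The log2 fold change of Eif2ak2 was -0.032 with columns rescaled to a common sum and ranged from -0.13 to 0.19 with 1 library left out, and that of Mavs from -0.11 to 0.068. The other 7 members kept a negative sign under all alternatives. With 1 Cux1-low library left, the lone sample is assumed to vary like the NrasG12D group. Counting error of single values was at most 5.64% for the members.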

Other observations

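Irf8, a regulator of monocyte, dendritic cell and B cell development, was the member of the interferon regulatory factor list with the highest log2 fold change (1.14, limma adjusted p = 0.167). Its Cux1-low values were 116 and 123 normalized CPM, and it was at 435 and 350 in NrasG12D libraries 1 and 2, and at 120.5 in library 3. Library 3 thus lay at the Cux1-low level for Irf8, while it was low with libraries 1 and 2 for Stat2 and Irf7.

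Not all interferon-stimulated genes had a negative log2 fold change. Of the 32 measured in that list, 28 had a negative log2 fold change and 4 a positive one (highest 0.54). At an unadjusted limma p under 0.05, 20 were lower and 0 higher, where 16.5% and 14.8% of all genes were. The genes given next are not those 4, and Usp18, Zbp1 and Adar come from other lists. Ifit1, which encodes an RNA-binding antiviral protein, measured 11.2 and 9.58 normalized CPM in Cux1-low, against 3.64, 3.99 and 4.74 in NrasG12D (limma adjusted p = 0.0511). Isg15, a ubiquitin-like modifier, was at 3.33 and 4.86 against 4.21, 3.99 and 2.92, with overlapping groups. Usp18, the protease that removes ISG15 and restrains IFNAR2, was at 28.0 and 26.7 against 17.5, 21.7 and 22.4 (limma adjusted p = 0.148). Zbp1, a sensor of Z-form nucleic acids, was at 10.4 and 7.56 against 5.03, 3.31 and 3.65 (limma adjusted p = 0.0757), and Adar, which edits double-stranded RNA, at 150 and 139 against 95.4, 106 and 116 (limma adjusted p = 0.0806).

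Irf3, the constitutive counterpart of Irf7 downstream of MAVS, measured 96.3 and 116 normalized CPM in Cux1-low, against 116, 111 and 107 in NrasG12D, with overlapping groups (log2 difference 0.08, limma adjusted p = 0.670). The receptor kinase gene Jak1 was at 648 and 641 against 382, 468 and 559 (limma adjusted p = 0.116), and Tyk2 at 107 and 124 against 98.6, 98.0 and 104 (limma adjusted p = 0.245). Tbk1, the kinase between MAVS and IRF3, was at 103 and 107 against 76.4, 81.4 and 89.0 (limma adjusted p = 0.0991).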
